A study of Mus musculus with 14 samples.

Results

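The endoplasmic reticulum is where a cell folds the proteins it secretes or puts into its membranes, and 45 genes of this machinery were followed in the spleens of mice with models of psoriasis-like skin inflammation. The members were taken from the gene table by symbol, from a list of chaperones, co-chaperones, disulfide isomerases, translocon and signal peptidase subunits, glycosylation enzymes, degradation factors and stress sensors. All 45 of 45 were found among 22116 named genes, and 45 of 45 passed the filter on low counts that left 15159 genes for testing.

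Whole spleens came from female, wild type BALB/c mice aged 6 to 8 weeks. Each of the 14 libraries was taken as 1 mouse, since the labels call them biological replicates and say no more. The 3 control mice had petrolatum, the vehicle of the cream, put on the back and ears; the series' design text calls them untreated, and no injection is recorded for them. Imiquimod, which activates Toll-like receptor 7, was given as a 5% cream each day for 5 days, on the skin of the back in 4 mice (imiquimod-dorsal) and on the ear in 4 others (imiquimod-ear). In 3 mice, recombinant mouse IL-23, which maintains T cells that make IL-17, was injected into the skin of the ear at 1 µg per ear, in 4 injections spread over 7 days (IL-23-ear). A library is named below by its group and its replicate number in the labels, which skip some numbers. All were labelled as 1 batch and as biological replicates.

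A protein bound for secretion enters the reticulum through the Sec61 channel while it is being made. The signal peptidase removes its signal sequence, the oligosaccharyltransferase attaches glycans, and chaperones such as BiP (Hspa5) and GRP94 (Hsp90b1), with calnexin, calreticulin and the disulfide isomerases, fold it. Proteins that fail to fold are sent back to the cytosol by the Hrd1 (Syvn1) complex and destroyed. When unfolded protein builds up, the sensors Ire1 (Ern1), Atf6 and Perk (Eif2ak3) start the unfolded protein response, which raises transcription of many of these genes. Plasma cells, which release antibody and live in the spleen among other places, carry an enlarged reticulum and depend on Xbp1, a transcription factor that Ire1 activates by splicing its mRNA.

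Levels are given as CPM, counts scaled to the depth of each library with TMM factors. Differences are log2 fold changes from edgeR's quasi-likelihood test over all 15159 genes, with p-values adjusted after Benjamini and Hochberg. The test gives no SE. The SE after ± was derived as the absolute log2 fold change divided by the square root of the F statistic. A gene is said to have risen or fallen where its adjusted p was below 0.05. In whole tissue, fewer cells of a type and less RNA per cell cannot be told apart.

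The response of many of these genes to unfolded protein runs through short promoter sequences, and the members that carry them are shown here because they follow the members' roles, by which the changes are described below. The endoplasmic reticulum stress element (ERSE) was searched as CCAAT, any 9 bases and CCACG, and ERSE-II as ATTGG, any base and CCACG, on both strands of the 300 bases before the start of each gene's canonical transcript in GENCODE release M39 on GRCm39. An ERSE was found in 9 of the 45 promoters and in 16 of 14800 promoters of tested protein-coding genes (0.11%), of which these 9 are a part. An ERSE-II was found in 3 members (6.7%) and in 11 of the 14800 (0.07%). These shares describe the list and are not a test, since many of its genes were already known to respond through such sequences. The 11 ERSE copies are written below 5′ to 3′ in the direction of CCAAT, with the 2 fixed parts in capitals and the 9 free bases in lower case:
Hspa5, chr2:34662037-34662055: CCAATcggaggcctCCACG
Hsp90b1, chr10:86541502-86541520: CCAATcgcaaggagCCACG
Hsp90b1, chr10:86541397-86541415: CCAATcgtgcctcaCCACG
Calr, chr8:85573704-85573722: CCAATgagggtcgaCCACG
Canx, chr11:50216627-50216645: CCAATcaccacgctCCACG
Dnajc3, chr14:119175239-119175257: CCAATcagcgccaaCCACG
Creld2, chr15:88703723-88703741: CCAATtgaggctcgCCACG
Pdia6, chr12:17316492-17316510: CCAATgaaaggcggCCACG
Derl3, chr10:75728974-75728992: CCAATagcaaggacCCACG
Derl3, chr10:75729076-75729094: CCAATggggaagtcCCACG
Syvn1, chr19:6096562-6096580: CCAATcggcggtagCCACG
The genes of Hsp90b1, Calr and Canx lie on the minus strand and the others on the plus strand. Of the 11 copies, 6 run in the direction of their gene, and their far ends lie 37 to 264 bases before the start. The free bases differ from copy to copy, and 5 to 7 of the 9 are G or C. The 4 ERSE-II copies are shorter:
Hyou1, chr9:44290661-44290671: ATTGGgCCACG
Hyou1, chr9:44290762-44290772: ATTGGtCCACG
Manf, chr9:106769238-106769248: ATTGGtCCACG
Herpud1, chr8:95113005-95113015: ATTGGgCCACG
Manf lies on the minus strand, and Hyou1 and Herpud1 on the plus strand. All 5 chaperone genes held one or the other element, as did 3 of 6 co-chaperone genes, 1 of 4 disulfide isomerase genes and 3 of 8 degradation genes. None of the promoters of the 5 translocon, 4 TRAP, 5 signal peptidase and 6 oligosaccharyltransferase genes held these letters. The core TGACGTG of the unfolded protein response element was present in 3 members (6.7%) and in 301 of the 14800 promoters (2.03%). A match is a string of letters in a window, not a measured binding site.

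**Figure D1:**
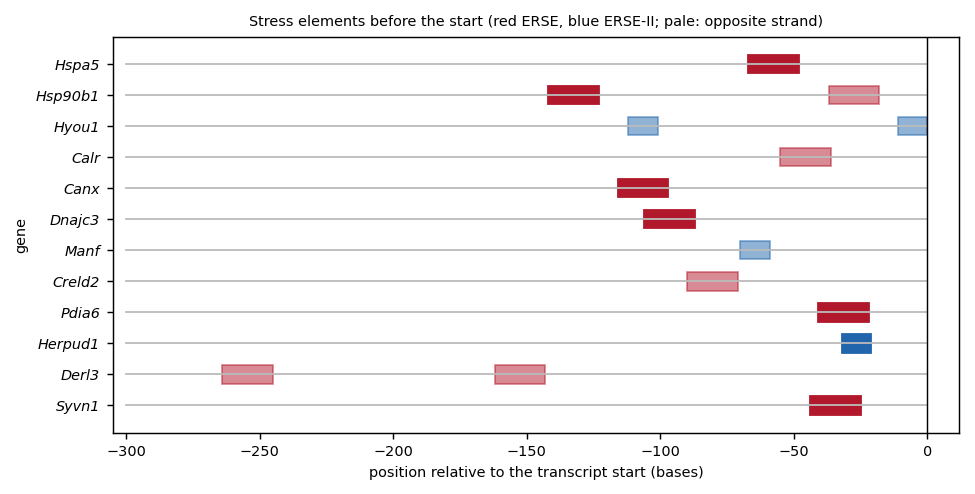
Positions of ERSE (red) and ERSE-II (blue) in the 300 bases before the transcript start of the 12 members that hold one; the x axis is in bases from the start, and pale boxes run against the gene's direction. Hsp90b1, Hyou1 and Derl3 each hold 2 copies, and those of Derl3 lie farthest from the start.

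The libraries held 28354674 to 40289411 counts over named genes, and the lowest level of any member in any library was 19.4 CPM (Derl3 in imiquimod-dorsal 3), against 0.0745 to 0.1058 CPM for 3 counts, so every member was far above the limit set by counting. In control spleens, per kilobase of canonical transcript, the highest members were Calr at 372 CPM, Hsp90b1 at 322 CPM, Pdia3 at 166 CPM and Hspa5 at 158 CPM. The lowest were the sensors Ern1 at 4.29 CPM and Atf6 at 9.99 CPM per kilobase. Together the 45 genes took 0.771%, 0.836% and 0.973% of the scaled counts in controls 2, 4 and 5. Control 5 was the highest control for 36 members and control 2 the lowest for 31. B cell markers, summed over 10 genes, were at 4067 to 5801 CPM and macrophage markers, with the red pulp genes Spic and Cd5l among them, at 1420 to 2401 CPM in all 14 libraries. Pancreas markers, from a neighbouring organ rich in this machinery, summed to 443 CPM in imiquimod-dorsal 4 and to 6.95 to 16.2 CPM in the other 13 libraries.

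The first comparison set imiquimod-ear against the controls and asks what the cream on the ear does to this machinery in the spleen. It rose almost as a whole: 40 of the 45 members were higher than in controls (14.3% of all tested genes were), 0 were lower (6.98% of all tested genes were), and all 45 log2 fold changes were above 0. Their median was 0.68, against 0.021 over all genes, and 9 of the risen members changed by 2-fold or more. The 5 that did not pass were Canx, Sec62, Herpud1, Derl2 and Ern1. Their log2 fold changes were 0.39, 0.19, 0.10, 0.21 and 0.32, with adjusted p of 0.0522, 0.088, 0.532, 0.0658 and 0.0825. The 45 genes took 1.60%, 1.87%, 1.35% and 1.10% of the scaled counts in imiquimod-ear 1, 3, 4 and 5.

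**Figure D2:**
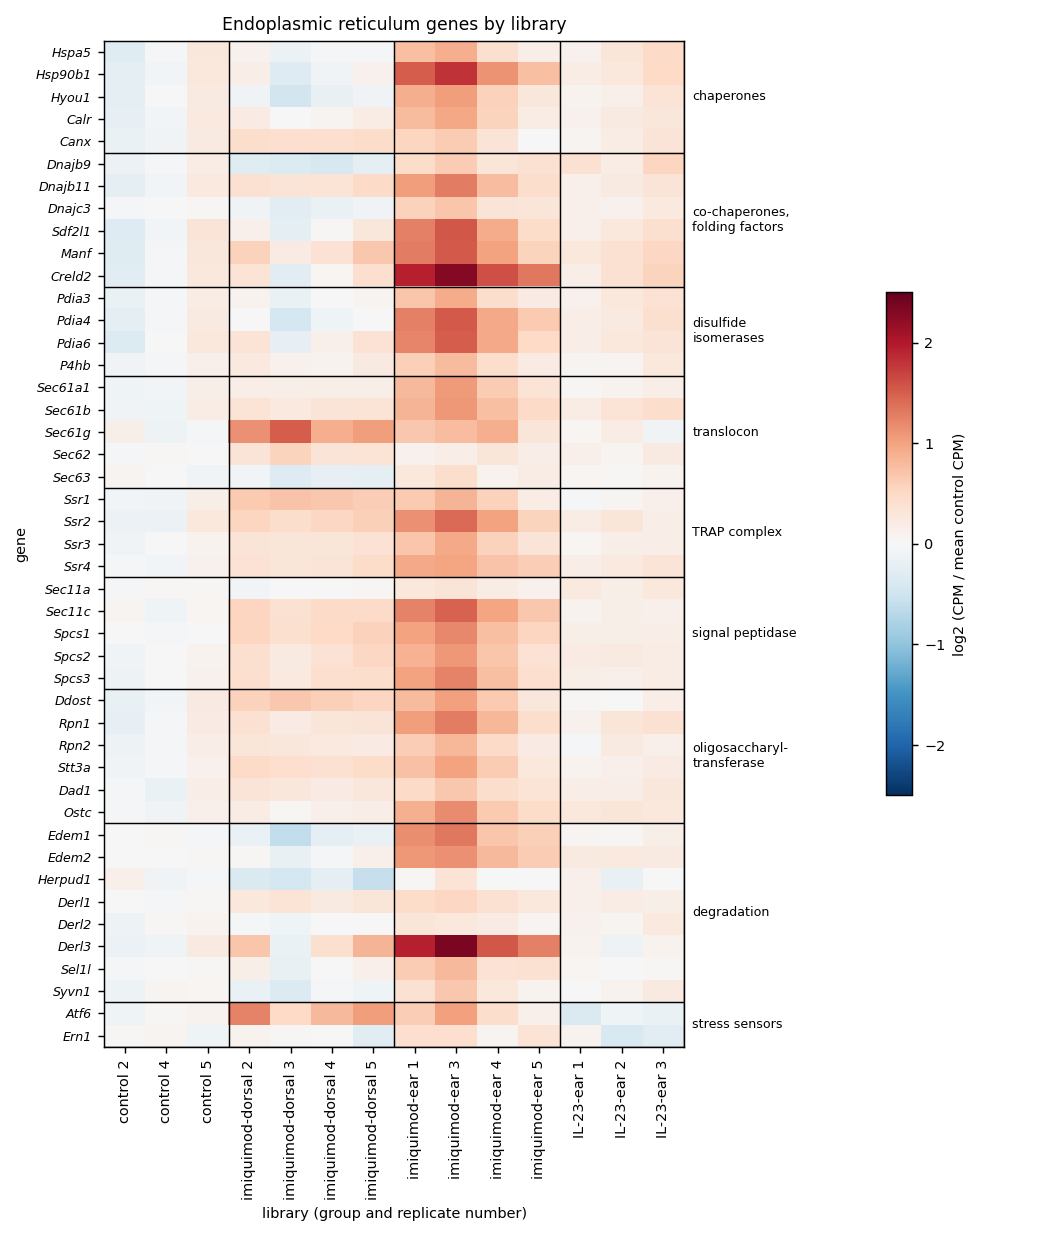
Level of each member (rows, by role) in each of the 14 libraries (columns), as log2 of its CPM over the mean of the 3 controls; red is above and blue below the control mean. The imiquimod-ear columns are red in nearly all rows, most in imiquimod-ear 3 and least in imiquimod-ear 5, and the imiquimod-dorsal columns are red mainly in the translocon, TRAP, signal peptidase and oligosaccharyltransferase rows.

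Among the chaperones, 4 of 5 rose. Hsp90b1 (GRP94), the Hsp90 of the reticulum, which folds immunoglobulins, integrins and Toll-like receptors, was at 771, 873 and 1093 CPM in controls 2, 4 and 5 and at 2620, 3175, 1996 and 1541 CPM in imiquimod-ear 1, 3, 4 and 5. Every imiquimod-ear library was above every control, and the log2 fold change was 1.35 ± 0.22 at an adjusted p of 0.00307, or 2.56-fold. Per kilobase it was the highest member in this group, at 824 CPM against 584 CPM for Calr. Hspa5 (BiP), the main Hsp70 of the reticulum, went from 633, 763 and 945 CPM in controls to 1307, 1464, 1031 and 878 CPM, a log2 fold change of 0.58 ± 0.17 at an adjusted p of 0.0282. Its lowest imiquimod-ear library lay below its highest control. The call was lost without control 2 or 4 or imiquimod-ear 1 or 3 or in a fit of only the 2 groups compared (0.42 to 0.56, adjusted p = 0.0894 to 0.153). Libraries were not stranded and exons of Rabepk cover 44.5% of the Hspa5 transcript on the other strand; Rabepk itself was at a mean of 20.5 CPM in controls and 19.7 CPM in imiquimod-ear. Hyou1 (GRP170), which helps BiP exchange its nucleotide, rose by 0.73 (adjusted p = 0.0102) and Calr (calreticulin), a lectin that binds new glycoproteins, by 0.65 (adjusted p = 0.011). The Hyou1 call was lost without control 2 or 4 or in a fit of only the 2 groups compared (0.59 to 0.71, adjusted p = 0.0558 to 0.0642), and that of Calr without control 2 or 4 or in a fit of only the 2 groups compared (0.52 to 0.63, adjusted p = 0.066 to 0.0701).

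All 6 co-chaperones and stress-induced folding factors rose, and the largest change of any member was here. Creld2, a reticulum protein induced by folding stress, was at 49.96, 59.01 and 72.8 CPM in controls and at 232, 297, 186 and 151 CPM in imiquimod-ear 1, 3, 4 and 5. The lowest treated library was above the highest control, and the log2 fold change was 1.84 ± 0.24 at an adjusted p of 0.00132, or 3.57-fold. Manf, a stress-induced neurotrophic factor that binds BiP, went from 141, 168 and 212 CPM to 423, 504, 351 and 254 CPM, a rise of 1.14 ± 0.21 at an adjusted p of 0.00432. Sdf2l1, a partner of the co-chaperone Dnajb11, rose by 1.11 (adjusted p = 0.00643) and Dnajb11 by 0.92 (adjusted p = 0.00377). Dnajc3, also a co-chaperone of BiP, rose by 0.49 (adjusted p = 0.0046). Dnajb9, which binds BiP and holds Ire1 inactive, was at 44.4, 47.5 and 55.9 CPM in controls and 67.3, 76.2, 60.97 and 63.9 CPM in imiquimod-ear libraries, with no overlap. It rose by 0.44 ± 0.10 at an adjusted p of 0.00979, a call that was lost without control 2 or 4 or in a fit of only the 2 groups compared (0.34 to 0.42, adjusted p = 0.0509 to 0.0741).

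The 4 disulfide isomerases, which form and rearrange the disulfide bonds of antibodies and other secreted proteins, all rose. Pdia4 went from 184, 208 and 251 CPM in controls to 510.2, 621, 413 and 338 CPM in imiquimod-ear libraries, with a gap between the groups, and rose by 1.14 ± 0.18 at an adjusted p of 0.00291. Pdia6 rose by 1.09 (adjusted p = 0.00569), Pdia3, which works with calnexin and calreticulin, by 0.59 (adjusted p = 0.0132) and P4hb, the classical isomerase, by 0.52 (adjusted p = 0.00767). The Pdia3 call was lost without control 2 or 4 or in a fit of only the 2 groups compared (0.47 to 0.56, adjusted p = 0.0691 to 0.0825), and that of P4hb without control 2 or 4 or in a fit of only the 2 groups compared (0.44 to 0.50, adjusted p = 0.0516 to 0.0555).

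Genes of entry into the reticulum rose as well. Of the translocon genes 4 of 5 were higher: the pore subunit Sec61a1 by 0.74 (adjusted p = 0.00318), Sec61b by 0.81 ± 0.12 at an adjusted p of 0.00182, Sec61g by 0.68 (adjusted p = 0.00846) and Sec63, which recruits BiP to the channel, by 0.25 (adjusted p = 0.0425). Sec61b was at 73.7, 73.3 and 88.8 CPM in controls and at 142, 166, 132 and 109.7 CPM in imiquimod-ear libraries, with no overlap. The Sec61g call was lost without control 4 (0.58, adjusted p = 0.0608). That of Sec63 was lost without control 2, 4 or 5, imiquimod-dorsal 4 or 5, imiquimod-ear 1 or 3 or IL-23-ear 1, 2 or 3, with RLE size factors, with no low-count filter, without haemoglobin and immunoglobulin genes or in a fit of only the 2 groups compared (0.15 to 0.25, adjusted p = 0.0507 to 0.173). All 4 subunits of TRAP, the complex that sits beside Sec61 and helps proteins with weak signal sequences through it, rose by 0.59 (Ssr1) to 1.06 (Ssr2). The Ssr1 call was lost in a fit of only the 2 groups compared (0.56, adjusted p = 0.0519). Ssr4 had the smallest adjusted p of the members together with Edem2, at 57.7, 57.2 and 64.9 CPM in controls and 115, 119, 98.5 and 91.9 CPM in imiquimod-ear libraries, a rise of 0.82 ± 0.09 at an adjusted p of 0.00078.

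All 5 signal peptidase genes rose. Sec11c and Sec11a encode alternative catalytic subunits of this enzyme. Sec11c was at 71.2, 63.1 and 70.5 CPM in controls and at 161, 189.8, 136 and 109 CPM in imiquimod-ear libraries, a rise of 1.12 ± 0.14 at an adjusted p of 0.000837, while Sec11a went from 74.4, 78.3 and 78.2 CPM to 92.2, 96.4, 87.2 and 83.02 CPM, a rise of 0.22 ± 0.06 at an adjusted p of 0.0228. Neither gene's groups overlapped. The Sec11a call was lost without control 2, 4 or 5, imiquimod-ear 1 or 3 or IL-23-ear 1 or 3, with no low-count filter or in a fit of only the 2 groups compared (0.15 to 0.20, adjusted p = 0.0503 to 0.149). The accessory subunits Spcs1, Spcs2 and Spcs3 rose by 0.89, 0.77 and 0.89 (adjusted p = 0.00111, 0.00296 and 0.00281).

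All 6 genes of the oligosaccharyltransferase, which transfers glycans to asparagines of the new chain, rose, with a median of 0.70 and a range of 0.49 to 0.93. Rpn1, a subunit that presents some membrane proteins to the enzyme, was at 147, 168 and 195 CPM in controls and at 349.8, 411, 302 and 232 CPM in imiquimod-ear libraries and rose by 0.93 ± 0.16 at an adjusted p of 0.00312. The groups did not overlap. The catalytic subunit Stt3a rose by 0.68 (adjusted p = 0.00416), Ostc, which ties the enzyme to the translocon, by 0.82 (adjusted p = 0.00237), and Ddost by 0.72 (adjusted p = 0.00491). Rpn2 rose by 0.55 (adjusted p = 0.00777), a call that was lost without control 2 or 4 or in a fit of only the 2 groups compared (0.45 to 0.52, adjusted p = 0.0539 to 0.0581), and Dad1 by 0.49 (adjusted p = 0.00373).

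Of the degradation genes 6 of 8 rose, with log2 fold changes from 0.10 to 1.83 over the 8. Derl3, a derlin of the channel that returns failed proteins to the cytosol, was at 19.8, 20.1 and 25.4 CPM in controls and at 83.6, 110.4, 63.7 and 51.9 CPM in imiquimod-ear 1, 3, 4 and 5. The treated libraries were all above the controls, and the rise was 1.83 ± 0.27 at an adjusted p of 0.00214, or 3.56-fold. Its relatives Derl1 and Derl2 moved by 0.41 (adjusted p = 0.00237) and 0.21 (adjusted p = 0.0658). The mannose-trimming factors Edem1 and Edem2, which mark glycoproteins for disposal, rose by 0.97 and 0.93 (adjusted p = 0.00288 and 0.00078). Sel1l, the partner of the ligase Hrd1, rose by 0.56 (adjusted p = 0.00479), and Hrd1 itself (Syvn1) by 0.37 (adjusted p = 0.041). The Syvn1 call was lost without control 2, 4 or 5, imiquimod-dorsal 2 or 5, imiquimod-ear 1, 3 or 4 or IL-23-ear 1, 2 or 3, with RLE size factors, with no low-count filter or in a fit of only the 2 groups compared (0.22 to 0.40, adjusted p = 0.0515 to 0.205). Mrpl49, whose exons overlap Syvn1 on the other strand, was higher too, by 0.38 (adjusted p = 0.0187). Herpud1, a scaffold of this complex and a standard marker of folding stress, was at 145, 126 and 128 CPM in controls and 135, 168, 133 and 132 CPM in imiquimod-ear libraries. Imiquimod-ear 3 stood above the other 3, which lay within the range of the controls, and the log2 fold change was 0.10 ± 0.11 at an adjusted p of 0.532.

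Of the sensors, Atf6 was at 69.6, 76.6 and 79.8 CPM in controls and 115, 154, 102 and 82.1 CPM in imiquimod-ear libraries and rose by 0.59 ± 0.20 at an adjusted p of 0.049. Its groups did not overlap, but imiquimod-ear 5 was close to the highest control, and the call was lost without control 2, 4 or 5, imiquimod-dorsal 4 or 5, imiquimod-ear 1, 3 or 4 or IL-23-ear 1, 2 or 3, with limma-voom, with RLE size factors, with no low-count filter, without haemoglobin and immunoglobulin genes or in a fit of only the 2 groups compared (0.37 to 0.64, adjusted p = 0.0527 to 0.184). Ern1 was at 30.6, 31.6 and 27.9 CPM in controls and 40.4, 40.1, 31.7 and 38.3 CPM in imiquimod-ear libraries, with a log2 fold change of 0.32 ± 0.13 at an adjusted p of 0.0825. No fold change measures the splicing of Xbp1 or the cleavage of Atf6, which are the active states of these pathways.

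**Figure D3:**
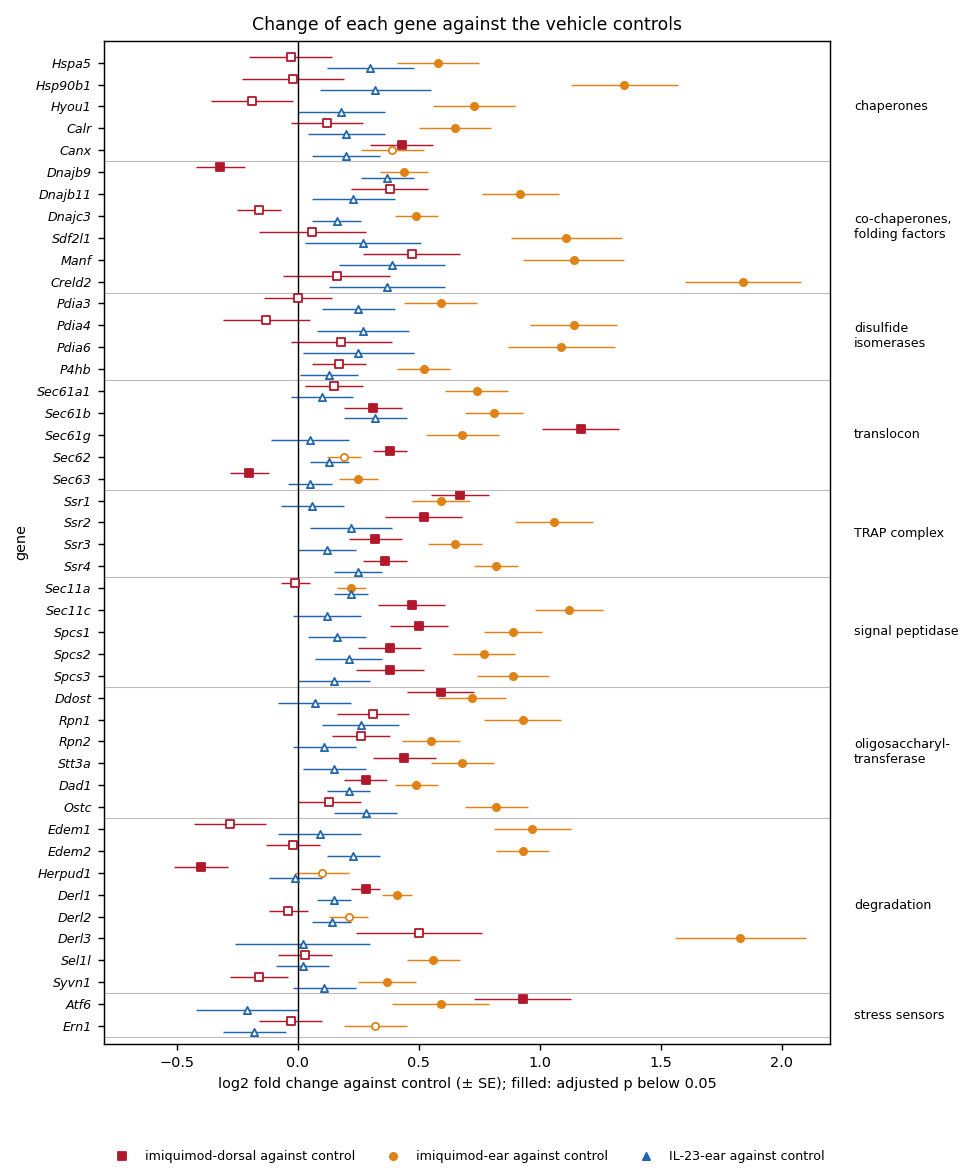
Log2 fold change of each member against the controls (x axis, bars are SE) for imiquimod-dorsal (red squares), imiquimod-ear (orange circles) and IL-23-ear (blue triangles); filled symbols have an adjusted p below 0.05. The 40 filled circles lie to the right of 0, 15 of the 20 filled squares lie in the 4 roles from translocon to oligosaccharyltransferase, and no triangle is filled; the 3 comparisons share the same controls.

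The 4 imiquimod-ear mice were ordered alike by most members. Imiquimod-ear 3 was the highest of the 4 libraries for 41 members and imiquimod-ear 5 the lowest for 40. The summed level of the 45 genes was 16030, 18660, 13470 and 11030 CPM in imiquimod-ear 1, 3, 4 and 5, and 7710, 8355 and 9728 CPM in controls 2, 4 and 5. Markers of plasma cells moved with the members in this group. All 8 were higher than in controls, and their summed level was 3992, 4427, 3050 and 2964 CPM in imiquimod-ear 1, 3, 4 and 5, which is the same order, against 1424, 1433 and 1142 CPM in controls 2, 4 and 5. Among the controls the orders differed, since control 5 had the highest member sum and the lowest plasma cell sum. The 2 orders were the same in imiquimod-dorsal and reversed in IL-23-ear. T cell and B cell markers ran in the reverse order of the members in imiquimod-ear. Their sums were 894.5, 779.4, 972.2 and 1359 CPM for T cells and 4680, 4413, 4828 and 5043 CPM for B cells in imiquimod-ear 1, 3, 4 and 5. Jchain, which joins antibody units into the polymers of IgM and IgA, rose by 1.46 ± 0.21 at an adjusted p of 0.00209. Sdc1 (CD138) rose by 1.30 ± 0.15 at an adjusted p of 0.00078. Prdm1 (Blimp-1) rose by 1.35 ± 0.24 at an adjusted p of 0.00372 and Tnfrsf17 (BCMA) by 2.09 ± 0.41 at an adjusted p of 0.00498. Mzb1, Eaf2, Irf4 and Slamf7 rose by 1.84, 2.70, 0.72 and 0.62 (adjusted p = 0.000808, 0.00101, 0.00618 and 0.0342). The Slamf7 call was lost without control 2, 4 or 5, imiquimod-ear 1 or 3 or IL-23-ear 1 or 2 or in a fit of only the 2 groups compared (0.46 to 0.73, adjusted p = 0.0521 to 0.161), and that of Irf4 in a fit of only the 2 groups compared (0.70, adjusted p = 0.0502). Other cell types moved as well. Of 10 neutrophil markers 8 were higher, with a median of 2.26 against 1.41 for the plasma cell markers, and their summed level was 188.5 to 765.2 CPM against 82.4 to 155.8 CPM in controls. All 10 cell cycle genes were higher. Lower were 4 of 10 B cell markers, 2 of 10 T cell markers, 2 of 10 dendritic cell markers and 1 of 10 macrophage markers, and 0 of 10 erythroid markers passed. Mzb1 itself encodes a reticulum protein. The part of these cells in the change of the members was not tested.

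**Figure D4:**
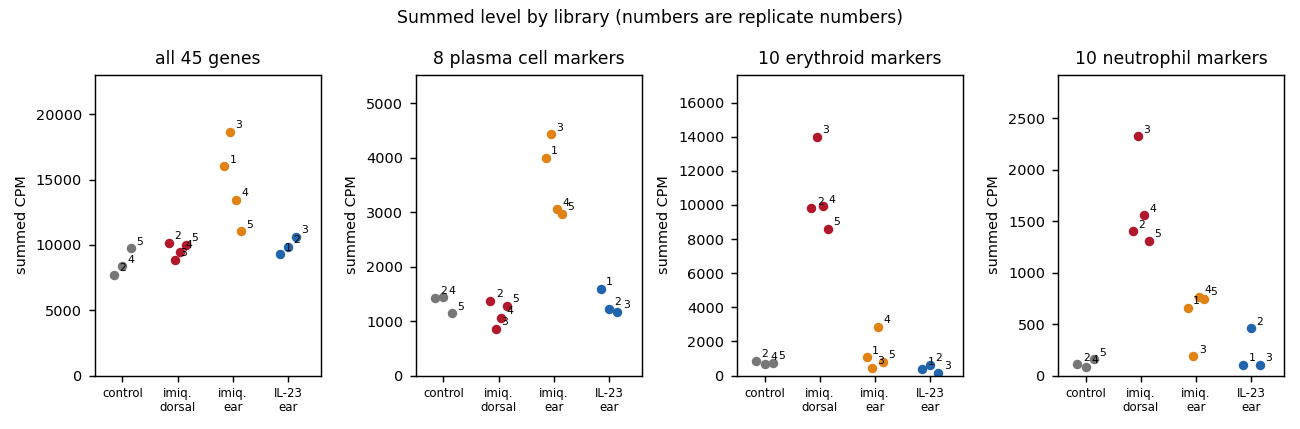
Summed CPM of the 45 members and of the plasma cell, erythroid and neutrophil marker lists in each library, with replicate numbers beside the points. The imiquimod-ear libraries are highest for the members and the plasma cell markers, in the order 3, 1, 4 and 5 in both panels, and the imiquimod-dorsal libraries are highest for the erythroid and neutrophil markers.

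Leaving out 1 library at a time left 28 to 42 of the 45 members higher in imiquimod-ear than in controls. Of the 40 calls, 12 were kept in all 21 other settings and 27 in the 20 that remain without the replicate block, DESeq2 and limma-voom among them. Those lost in at least 1 of these 20 were Hspa5, Hyou1, Calr, Dnajb9, Pdia3, P4hb, Sec61g, Sec63, Ssr1, Sec11a, Rpn2, Syvn1 and Atf6, and every one stayed above 0.

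Imiquimod on the back gave another pattern. Of 20 genes of the membrane machinery that brings proteins in and modifies them, joined after their values were seen, 14 rose. Of 15 member genes of folding inside the reticulum 1 did. This contrast describes these data and is not a test. Of the 45 members 17 rose and 3 fell, against 32.3% of all tested genes that rose and 27.6% that fell, with a median log2 fold change of 0.18 against -0.001 over all genes. The share of members that rose, 37.8%, was near that of all genes, and the share that fell, 6.7%, was below it. The count of risen members was 9 without control 2 and 8 without control 4. The count of fallen members was 5 without imiquimod-ear 3 or imiquimod-ear 5, which enter the shared scaling and fit. Without these libraries the median log2 fold change over all genes was -0.0518 and -0.0512. It was much the same without some other libraries, such as imiquimod-ear 1 (-0.0518), IL-23-ear 1 (-0.0529) or control 4 (-0.0527). The cause of the changed count was not tested.

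By role, 4 of 4 TRAP genes, 4 of 5 signal peptidase genes, 3 of 5 translocon genes and 3 of 6 oligosaccharyltransferase genes rose, and 1 translocon gene fell. These 20 genes, joined after their values were seen, had a median of 0.37. The 15 chaperones, co-chaperones and disulfide isomerases had 1 rise (Canx), 1 fall (Dnajb9) and a median of 0.06. This holds for these members only, since most of the further folding genes outside the list, given below, rose in imiquimod-dorsal. In imiquimod-ear the sets of 20 and 15 members had 19 of 20 and 14 of 15 rises and medians of 0.73 and 0.73. The 14 rises were 7 without control 2 and 6 without control 4, while 18 of the 20 log2 fold changes were above 0 in both cases, with medians of 0.28 and 0.30. Erythroid markers also differed strongly here: 10 of 10 were higher, and their summed level was 8593 to 14010 CPM against 696 to 877 CPM in controls. Neutrophil markers were at 1308 to 2324 CPM against 82.4 to 155.8 CPM, and 10 of 10 T cell markers were lower. All 10 cell cycle markers, 1 dendritic cell marker and 1 macrophage marker were higher, and 8 of 10 dendritic cell, 4 of 10 B cell and 2 of 8 plasma cell markers (Irf4 and Slamf7) were lower. The part of these cells in the members' change was not tested. Without imiquimod-dorsal 4, the library with pancreas markers, 15 members rose and 2 fell.

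Ssr1, the alpha subunit of TRAP, was at 154, 153 and 179 CPM in controls 2, 4 and 5 and at 256, 266, 259.6 and 246 CPM in imiquimod-dorsal 2, 3, 4 and 5. The treated libraries lay close together and above all controls, and the rise was 0.67 ± 0.12 at an adjusted p of 0.000287. Ssr2, Ssr3 and Ssr4 rose by 0.52, 0.32 and 0.36 (adjusted p = 0.0111, 0.0214 and 0.00346). The Ssr4 rise, from 57.7, 57.2 and 64.9 CPM to 77.2, 74.2, 74.7 and 82.1 CPM, held without any 1 library. The Ssr2 call was lost without control 2 or 4 (0.40, adjusted p = 0.0758 to 0.077), and that of Ssr3 without control 2 or 4, imiquimod-ear 1 or IL-23-ear 1, 2 or 3 (0.22 to 0.27, adjusted p = 0.0504 to 0.142). Idh3g, whose exons overlap those of Ssr4 on the other strand, was higher as well, by 0.28 (adjusted p = 0.0043).

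Sec61g, the small gamma subunit of the channel, had the largest change. It was at 31.4, 25.9 and 28.1 CPM in controls and at 62.9, 81.04, 53.7 and 59.05 CPM in imiquimod-dorsal 2, 3, 4 and 5. Every treated library was above every control, and the log2 fold change was 1.17 ± 0.16 at an adjusted p of 2.49e-05, or 2.25-fold. Several pseudogenes match parts of its transcript at over 95% identity, as does a stretch of Raph1 over 20.6% of its length, so reads may have been shared; Raph1 went the other way, with a log2 fold change of -0.88 (adjusted p = 0.000249). Sec62, a channel subunit that serves short secretory proteins, was at 131, 137 and 132 CPM in controls and 166, 195, 166 and 168 CPM in imiquimod-dorsal libraries, with imiquimod-dorsal 3 above the other 3, and rose by 0.38 ± 0.07 at an adjusted p of 0.000543. Sec61b rose by 0.31 ± 0.12 at an adjusted p of 0.0349, from 73.7, 73.3 and 88.8 CPM to 98.9, 92.6, 98.6 and 99.7 CPM, a call that was lost without control 2 or 4, imiquimod-dorsal 2, 4 or 5, imiquimod-ear 1 or IL-23-ear 1, 2 or 3 or with no low-count filter (0.21 to 0.30, adjusted p = 0.0616 to 0.207). Sec61a1, the pore, was at 0.15 (adjusted p = 0.316). Sec63 fell: it was at 110.3, 107 and 100 CPM in controls and 101, 84.5, 91.1 and 90.9 CPM in imiquimod-dorsal libraries, which overlap, with a log2 fold change of -0.20 ± 0.08 at an adjusted p of 0.0459. That call was lost without control 2 or imiquimod-dorsal 3, 4 or 5 (-0.22 to -0.17, adjusted p = 0.0586 to 0.115).

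Spcs1, the smallest signal peptidase subunit, was at 65.9, 64.2 and 66.02 CPM in controls and 94.8, 86.5, 91.8 and 97.4 CPM in imiquimod-dorsal libraries and rose by 0.50 ± 0.12 at an adjusted p of 0.00196. The groups did not overlap. Sec11c rose by 0.47 ± 0.14 at an adjusted p of 0.00884, from 71.2, 63.1 and 70.5 CPM to 98.9, 88.7, 94.6 and 95.7 CPM, a call that was lost without control 4 (0.36, adjusted p = 0.066). Sec11a was at 73.5, 77.4, 76.99 and 78.8 CPM, close to the controls, with a log2 fold change of -0.01 ± 0.06 at an adjusted p of 0.946. Spcs2 and Spcs3 rose by 0.38 and 0.38 (adjusted p = 0.0198 and 0.0337). The Spcs2 call was lost without control 2 or 4 or imiquimod-dorsal 5 (0.28 to 0.33, adjusted p = 0.0541 to 0.121), and that of Spcs3 without control 2, 4 or 5, imiquimod-dorsal 2, 4 or 5, imiquimod-ear 1 or IL-23-ear 1, 2 or 3 or with no low-count filter (0.27 to 0.39, adjusted p = 0.0562 to 0.177).

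Of the oligosaccharyltransferase, Ddost, Stt3a and Dad1 rose. Ddost (OST48) was at 134, 146 and 176 CPM in controls and 227, 241, 230.4 and 219 CPM in imiquimod-dorsal libraries, with no overlap, and rose by 0.59 ± 0.14 at an adjusted p of 0.00224. Exons of Pink1 cover 49.4% of its transcript on the other strand; Pink1 had a mean of 48.2 CPM in controls and 51.5 CPM in imiquimod-dorsal. Stt3a rose by 0.44 (adjusted p = 0.00843) and Dad1 by 0.28 (adjusted p = 0.0146). The Stt3a call was lost without control 2 or 4 (0.34 to 0.37, adjusted p = 0.0507 to 0.062), and that of Dad1 without control 2 or 4 (0.15 to 0.21, adjusted p = 0.0967 to 0.185). Rpn1 was at 221, 197, 211 and 213 CPM, above all controls, with a log2 fold change of 0.31 ± 0.15 at an adjusted p of 0.101. Rpn2 and Ostc were at 0.26 and 0.13 (adjusted p = 0.0766 and 0.405).

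The chaperones stood close to the controls. Hspa5 was at 837, 704, 758 and 764 CPM in imiquimod-dorsal 2, 3, 4 and 5, inside the control range, with a log2 fold change of -0.03 ± 0.17 at an adjusted p of 0.902. Hsp90b1 was at 1027, 729, 864 and 983 CPM, with a log2 fold change of -0.02 ± 0.21 at an adjusted p of 0.946, and Pdia4 at 213, 158, 198 and 212 CPM, with -0.13 ± 0.18 at an adjusted p of 0.541. Canx (calnexin), the membrane-bound lectin chaperone, was the exception: it was at 394, 418 and 518 CPM in controls and 602, 593, 591 and 606 CPM in imiquimod-dorsal libraries and rose by 0.43 ± 0.13 at an adjusted p of 0.0129, a call that was lost without control 2 or 4 (0.30 to 0.34, adjusted p = 0.0839 to 0.104). Dnajb9 fell, from 44.4, 47.5 and 55.9 CPM in controls to 40.02, 38.8, 37.2 and 42.3 CPM, with a log2 fold change of -0.32 ± 0.10 at an adjusted p of 0.0163. All 4 treated libraries were below all 3 controls, and the call held without any 1 library. The other 10 of these 15 genes lay between -0.19 (Hyou1) and 0.47 (Manf, adjusted p = 0.0622).

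Among the degradation genes and sensors, Herpud1 fell and Derl1 and Atf6 rose. Herpud1 was at 104, 98.5, 111 and 89.5 CPM in imiquimod-dorsal 2, 3, 4 and 5, below every control, and fell by 0.40 ± 0.11 at an adjusted p of 0.00499 on the log2 scale. Derl1 rose by 0.28 ± 0.06 at an adjusted p of 0.00166, with no overlap. Derl3 was at 35.02, 19.4, 28.9 and 39.4 CPM, from just below the lowest control to above the highest, with a log2 fold change of 0.50 ± 0.26 at an adjusted p of 0.117. Atf6, the membrane-bound sensor that is cut in the Golgi to free a transcription factor, was at 179, 107, 132 and 155 CPM in imiquimod-dorsal 2, 3, 4 and 5 against 69.6, 76.6 and 79.8 CPM in controls. Each treated library was above each control, and the rise was 0.93 ± 0.20 at an adjusted p of 0.00136, or 1.9-fold. Ern1 was at 32.1, 30.7, 30.4 and 24.7 CPM, with a log2 fold change of -0.03 ± 0.13 at an adjusted p of 0.874. The calls of Sec61g, Sec62, Ssr1, Ssr4, Spcs1, Ddost, Derl1, Atf6, Herpud1 and Dnajb9, 10 of the 20, were kept in all 21 other settings.

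**Figure D5:**
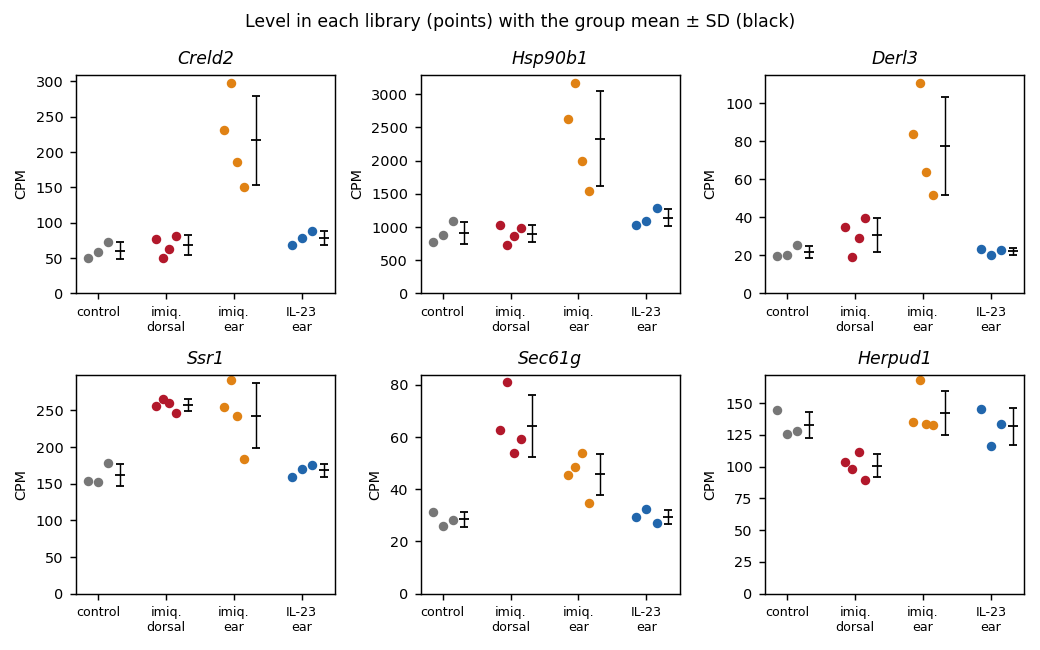
CPM of 6 members in each library (points, replicates in the order of their numbers) with the group mean and SD in black. Creld2, Hsp90b1 and Derl3 are highest in imiquimod-ear, Ssr1 is high in both imiquimod groups, Sec61g is highest in imiquimod-dorsal, and Herpud1 is lowest in imiquimod-dorsal.

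IL-23 in the ear was compared with the same controls. No member passed: 0 of 45 were higher and 0 lower by edgeR (0.0462% and 0.00660% of all tested genes passed), 0 by DESeq2 and 0 by limma-voom, and 6 had an unadjusted p below 0.05. Their log2 fold changes ran from -0.21 (Atf6) to 0.39 (Manf), with a median of 0.16 against 0.011 over all genes, and 42 of the 45 were above 0. The members nearest to the threshold were Dnajb9 and Sec11a (both adjusted p = 0.329). Dnajb9 was at 64.3, 55.8 and 71.1 CPM in IL-23-ear 1, 2 and 3 against 44.4, 47.5 and 55.9 CPM in controls, with a log2 fold change of 0.37 ± 0.11 at an adjusted p of 0.329. The lowest IL-23-ear library was just below the highest control. Sec11a was at 91.7, 85.5 and 92.3 CPM, above all controls, with 0.22 ± 0.07 at an adjusted p of 0.329. Hspa5 was at 836, 962 and 1090 CPM, Hsp90b1 at 1034, 1098 and 1285 CPM and Creld2 at 68.2, 78.7 and 88.8 CPM. Their lowest IL-23-ear libraries lay within the control range, and the log2 fold changes were 0.30 ± 0.18 at an adjusted p of 0.705, 0.32 ± 0.23 at an adjusted p of 0.759 and 0.37 ± 0.24 at an adjusted p of 0.727. Derl3, at 23.2, 20.03 and 22.96 CPM, and Herpud1, at 146, 117 and 134 CPM, overlapped the controls, with 0.02 and -0.01. Pdia4, Sec61b, Sec11c, Ssr4 and Rpn1 were at 0.27, 0.32, 0.12, 0.25 and 0.26, and the sensors Atf6 and Ern1 at -0.21 and -0.18. The summed level of the 45 genes was 9285, 9835 and 10640 CPM, and that of the plasma cell markers 1592, 1229 and 1169 CPM, in IL-23-ear 1, 2 and 3.

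The 2 imiquimod groups were compared directly to see where the machinery differed between ear and back. Of the 45 members 37 were higher in imiquimod-ear and 2 lower, against 23.3% and 24.5% of all tested genes, with a median of 0.53 against 0.025 over all genes. The difference was largest in Creld2 (1.67 ± 0.21 at an adjusted p of 4.94e-05), Hsp90b1 (1.37 ± 0.20 at an adjusted p of 0.000144), Derl3 (1.33 ± 0.24 at an adjusted p of 0.000648), Pdia4 (1.27 ± 0.17 at an adjusted p of 5.73e-05), Edem1 (1.25 ± 0.15 at an adjusted p of 1.98e-05) and Sdf2l1 (1.05 ± 0.21 at an adjusted p of 0.00126). In all 6 the imiquimod-ear libraries lay above the imiquimod-dorsal ones. Over all 45 members the groups did not overlap for 27. Edem1 was at 421, 471, 305 and 284 CPM in imiquimod-ear 1, 3, 4 and 5 and at 169.5, 124, 161 and 168 CPM in imiquimod-dorsal 2, 3, 4 and 5. Hspa5, Dnajb9 and Herpud1 were higher as well, by 0.61, 0.76 and 0.50 (adjusted p = 0.00601, 3.21e-05 and 0.00102).

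The 2 lower members were Sec61g, at -0.49 ± 0.14 at an adjusted p of 0.0103, and Sec62, at -0.20 ± 0.07 at an adjusted p of 0.029; the Sec62 call was lost without control 2, 4 or 5, imiquimod-dorsal 3, imiquimod-ear 1, 3 or 5 or IL-23-ear 1 or 2, with no low-count filter or in a fit of only the 2 groups compared (-0.18 to -0.14, adjusted p = 0.0526 to 0.125). The count of lower members was then 1, except without imiquimod-ear 3, where it was 2. The 6 members that did not pass were Canx, Ssr1, Ddost, Stt3a, Derl1 and Atf6, between -0.34 (Atf6, adjusted p = 0.139) and 0.25 (Stt3a, adjusted p = 0.0951). All of them had risen against controls in imiquimod-dorsal. Of the 15 chaperones, co-chaperones and disulfide isomerases, all but the membrane-bound Canx, 14, were higher on the ear side, with a median of 0.67. Of the 20 membrane genes, joined after their values were seen, 15 were, with a median of 0.39. Ern1 was higher by 0.35 ± 0.12 at an adjusted p of 0.0236, a call that was lost without imiquimod-dorsal 5 (0.27, adjusted p = 0.0736). Sec61b, Sec11c, Ssr4 and Rpn1 were higher by 0.50, 0.66, 0.46 and 0.62 (adjusted p = 0.00202, 0.000777, 0.000506 and 0.00296). Plasma cell markers were also higher in imiquimod-ear, 8 of 8, as were 10 of 10 T cell markers and 5 of 10 dendritic cell markers. Erythroid markers, 10 of 10, cell cycle markers, 10 of 10, and neutrophil markers, 5 of 10, were lower, as were 1 dendritic cell and 2 macrophage markers. Of the B cell markers 2 were higher and 1 lower. Their part in the difference was not tested.

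Both ear treatments were set against each other next. In IL-23-ear 34 of the 45 members were lower than in imiquimod-ear and 0 higher, against 10.2% and 7.06% of all tested genes (the highest log2 fold change was 0.00, in Sec11a), with a median of -0.53 against -0.016 over all genes. The count rests partly on single libraries: 17 were lower without IL-23-ear 1 and 20 without IL-23-ear 3. The largest differences were in Derl3 (-1.81 ± 0.27 at an adjusted p of 0.00188), Creld2 (-1.46 ± 0.23 at an adjusted p of 0.0023), Hsp90b1 (-1.03 ± 0.22 at an adjusted p of 0.00818), Sec11c (-1.0 ± 0.14 at an adjusted p of 0.00112), Edem1 (-0.88 ± 0.16 at an adjusted p of 0.00349) and Pdia4 (-0.87 ± 0.18 at an adjusted p of 0.00772). None of these 6 overlapped between the groups, as was so for 31 of the 45 members, and their calls held without any 1 library. Sec11c was at 72.8, 75.5 and 74.5 CPM in IL-23-ear 1, 2 and 3, and the alternative subunit Sec11a at 91.7, 85.5 and 92.3 CPM, with a log2 difference of 0.00 from imiquimod-ear.

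All 6 oligosaccharyltransferase genes and all 4 TRAP genes were lower in IL-23-ear, as were 4 of 5 signal peptidase genes. Without IL-23-ear 1, the calls of Rpn1, Rpn2, Stt3a, Dad1, Ostc and Ssr1 were lost (-0.57 to -0.24, adjusted p = 0.0508 to 0.158), which leaves Ddost of the oligosaccharyltransferase. Without IL-23-ear 3, those of Rpn2, Dad1, Ostc and Spcs2 were lost (-0.53 to -0.30, adjusted p = 0.0517 to 0.0913), and without IL-23-ear 2 that of Dad1 (-0.25, adjusted p = 0.126). A fit of only the 2 groups compared lost Rpn1, Rpn2, Stt3a, Dad1, Ostc, Ssr1, Ssr3 and Spcs2 (-0.66 to -0.27, adjusted p = 0.0504 to 0.0924). The Rpn2 call was also lost without imiquimod-ear 1 or 3, and that of Dad1 without control 2, imiquimod-dorsal 2, 4 or 5, imiquimod-ear 1, 3 or 4 or with no low-count filter; over all its losses Rpn2 was at -0.43 to -0.31 (adjusted p = 0.0729 to 0.128) and Dad1 at -0.30 to -0.19 (adjusted p = 0.0506 to 0.158). Ssr4 was lower, at -0.58 ± 0.09 at an adjusted p of 0.00195, and Rpn1, at -0.67 ± 0.16 at an adjusted p of 0.0123. Sec61b was lower, at -0.49 ± 0.12 at an adjusted p of 0.0145, a call that was lost without IL-23-ear 1 or in a fit of only the 2 groups compared (-0.48 to -0.40, adjusted p = 0.0643 to 0.0783). Both sensors were lower: Atf6 at -0.80 ± 0.20 at an adjusted p of 0.0171, lost without IL-23-ear 1 or 3 (-0.80 to -0.71, adjusted p = 0.0617 to 0.0763), and Ern1 at -0.50 ± 0.13 at an adjusted p of 0.0176, lost without imiquimod-ear 1 or IL-23-ear 2 or 3 or in a fit of only the 2 groups compared (-0.49 to -0.39, adjusted p = 0.0575 to 0.0931). Hspa5, Dnajb9 and Herpud1 did not pass, at -0.28, -0.07 and -0.11 (adjusted p = 0.263, 0.648 and 0.505). All 8 plasma cell markers and all 10 cell cycle markers were lower too, as were 3 of 10 neutrophil markers (Elane, Mpo and Prtn3, -2.94 to -2.66) and 1 of 10 erythroid markers. Higher were 8 of 10 T cell, 4 of 10 dendritic cell, 3 of 10 B cell and 3 of 10 macrophage markers. Their part in the change was not tested.

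Between IL-23-ear and imiquimod-dorsal, 5 members were higher and 7 lower in IL-23-ear, against 27.1% and 30.0% of all tested genes. The higher ones were Dnajb9 (0.69 ± 0.10 at an adjusted p of 6.35e-05), Herpud1 (0.39 ± 0.11 at an adjusted p of 0.00597), Dnajc3 (0.32 ± 0.09 at an adjusted p of 0.00899), Sec63 (0.25 ± 0.08 at an adjusted p of 0.0165) and Sec11a (0.23 ± 0.06 at an adjusted p of 0.00581). The lower ones were Atf6 (-1.14 ± 0.20 at an adjusted p of 0.000318), Sec61g (-1.12 ± 0.15 at an adjusted p of 3.47e-05), Ssr1 (-0.61 ± 0.12 at an adjusted p of 0.00058), Ddost (-0.52 ± 0.14 at an adjusted p of 0.00527), Sec11c, Spcs1 and Sec62 (-0.35, -0.35 and -0.25, adjusted p = 0.0413, 0.0189 and 0.0103). In none of the 12 did the groups overlap, but this was common: they did not overlap for 27 of all 45 members. All 10 T cell markers, 8 of 10 dendritic cell markers, 5 of 10 B cell markers and 2 of 8 plasma cell markers were higher in IL-23-ear, and all 10 erythroid, all 10 neutrophil and all 10 cell cycle markers and 1 dendritic cell marker were lower. Of the macrophage markers 2 were higher and 2 lower. Their part in these differences was not tested. These counts moved when 1 library was left out: 9 to 13 were higher without control 2, 4 or 5 or imiquimod-ear 1, 3 or 5, and 4 were lower without IL-23-ear 1 or 2. The Sec11c call was lost without control 2, 4 or 5, imiquimod-dorsal 2, 4 or 5, imiquimod-ear 1 or IL-23-ear 1, 2 or 3 or with no low-count filter (-0.35 to -0.29, adjusted p = 0.0659 to 0.141), that of Spcs1 without IL-23-ear 1, 2 or 3 (-0.31, adjusted p = 0.0674 to 0.0728), and that of Sec62 without IL-23-ear 1 or 2 (-0.20 to -0.18, adjusted p = 0.072 to 0.101). Hspa5, Hsp90b1 and Pdia4 did not pass, at 0.33, 0.34 and 0.40 (adjusted p = 0.11, 0.19 and 0.0686), nor did Sec61b, Ssr4, Rpn1, Derl3 and Ern1, at 0.01, -0.11, -0.05, -0.48 and -0.15.

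Ranked by group mean, imiquimod-ear was highest for 39 members, imiquimod-dorsal for 5 (Canx, Sec61g, Sec62, Ssr1 and Atf6) and IL-23-ear for 1 (Sec11a). Controls were lowest for 29 members, imiquimod-dorsal for 14 and IL-23-ear for 2 (Atf6 and Ern1). Neighbours in these orders often did not pass the test: controls and IL-23-ear did not for any member, nor did the imiquimod groups for Canx, Ssr1, Ddost, Stt3a, Derl1 and Atf6. Within groups, members differed in how much mice varied. The coefficient of variation within groups was 20.9% for Derl3, 20.5% for Creld2 and 19.4% for Sdf2l1 at the upper end, and 3.7% for Derl1 and 4.1% for Sec11a at the lower.

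The promoter elements shown above were read beside these changes. In imiquimod-ear, of the 12 with an ERSE or ERSE-II 10 rose, with a median of 0.69, and of the 33 without 30 rose, with a median of 0.68. Both Derl3 and Creld2, which rose most, held an ERSE, and so did Canx, which did not pass; Herpud1, which did not pass either, held an ERSE-II. In imiquimod-dorsal 1 of the 12 rose (Canx) and 1 fell (Herpud1), with a median of 0.05, and of the 33 without an element 16 rose and 2 fell, with a median of 0.28. Over all tested genes 32.3% rose and 27.6% fell in imiquimod-dorsal, and 14.3% rose and 6.98% fell in imiquimod-ear. These counts describe the members and are not a test of the elements. All the chaperones and none of the membrane machinery genes held an element, while the co-chaperones, disulfide isomerases and degradation genes were mixed. Outside the list, 7 tested genes held an ERSE: Alg12, Ero1b, Hnrnpa3, Pan2, Ttc41, Xlr3a and Xlr3b. Exons of Ttc41 lie in the Hsp90b1 promoter and both had 2 matches, so these may be the same sites. In imiquimod-ear Ttc41 and Ero1b rose by 1.5 and 0.35 (adjusted p = 0.00544 and 0.00387) and the others did not pass. In imiquimod-dorsal Pan2 rose by 0.16 (adjusted p = 0.0407), Alg12 was at -0.31 (adjusted p = 0.0181) and the others did not pass.

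Other genes of the pathway, from lists that hold no members, were read beside them. Of 13 regulators of the unfolded protein response, 4 were higher and 0 lower in imiquimod-ear than in controls, and 5 were higher and 3 lower in imiquimod-dorsal. The shares over all tested genes, against which these and the following counts are to be read, were 14.3% higher and 6.98% lower in imiquimod-ear and 32.3% higher and 27.6% lower in imiquimod-dorsal, so the regulators' counts in imiquimod-dorsal were near those of all genes. Xbp1 was at 124, 137 and 156 CPM in controls, 176, 122, 155 and 164 CPM in imiquimod-dorsal, 372, 442, 291 and 246 CPM in imiquimod-ear and 157, 148 and 165 CPM in IL-23-ear. It was highest in imiquimod-ear, with a log2 fold change of 1.28 ± 0.18 at an adjusted p of 0.00175 there and 0.15 ± 0.17 at an adjusted p of 0.484 in imiquimod-dorsal. Atf4, the transcription factor whose translation the Perk branch and other stress kinases raise, was at 124, 134 and 158 CPM in controls, 342, 374, 318 and 324 CPM in imiquimod-dorsal and 191, 195, 222 and 158 CPM in imiquimod-ear. It was highest in imiquimod-dorsal, with a rise of 1.30 ± 0.11 at an adjusted p of 1.33e-06, and 0.47 ± 0.11 at an adjusted p of 0.0104 in imiquimod-ear, the latter lost without control 2 or 4 or in a fit of only the 2 groups compared (0.36 to 0.45, adjusted p = 0.064 to 0.0761). Between the imiquimod groups Xbp1 was higher in imiquimod-ear by 1.13 ± 0.16 at an adjusted p of 0.000102 and Atf4 lower, at -0.82 ± 0.10 at an adjusted p of 2.82e-05.

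Ppp1r15a (Gadd34), a target of Atf4 that restores translation, rose in imiquimod-dorsal by 2.73 ± 0.38 at an adjusted p of 7.59e-05. Ddit3 (Chop) rose there by 0.41 ± 0.13 at an adjusted p of 0.0175, a call that was lost without control 2 or 4 (0.25 to 0.28, adjusted p = 0.142 to 0.16), and was at -0.24 ± 0.13 at an adjusted p of 0.215 in imiquimod-ear. Eif2ak3 (Perk) did not pass against controls, at -0.16 in imiquimod-dorsal and 0.24 in imiquimod-ear (adjusted p = 0.223 and 0.145). Creb3l2, a relative of Atf6, rose in imiquimod-ear by 0.87 ± 0.19 at an adjusted p of 0.00767.

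Of 16 further folding and glycan processing genes, 14 were higher and 0 lower in imiquimod-ear, led by Fkbp11 (2.37 ± 0.24 at an adjusted p of 0.000511) and the disulfide isomerase Txndc5 (1.65 ± 0.20 at an adjusted p of 0.00101). In imiquimod-dorsal 9 were higher and 1 lower, whereas of the 15 folding members 1 rose and 1 fell there. Dnajc10 was at 0.52 ± 0.07 at an adjusted p of 1.88e-05 and the glucosidase Mogs at 0.65 ± 0.12 at an adjusted p of 0.000286. Of 16 targeting and translocation genes, 11 were higher in imiquimod-ear and 11 in imiquimod-dorsal, with 0 lower in either; the signal recognition particle gene Srp9 rose by 0.52 ± 0.06 at an adjusted p of 0.000804 in imiquimod-ear and Srp19 by 0.86 ± 0.13 at an adjusted p of 5.18e-05 in imiquimod-dorsal. Tmem258 rose by 0.77 in imiquimod-ear (adjusted p = 0.00225) and Tusc3, which serves glycosylation, by 0.70 in imiquimod-dorsal (adjusted p = 1.51e-05). Of 14 further degradation genes, 7 were higher in imiquimod-ear and 0 lower, and 8 higher and 1 lower in imiquimod-dorsal. The ligase gene Rnf5 rose in both, by 0.35 and 0.64 (adjusted p = 0.00372 and 2.59e-06), and Hspa13, an Hsp70 relative, in imiquimod-ear by 0.77 (adjusted p = 0.00521). The Hspa13 call was lost in a fit of only the 2 groups compared (0.74, adjusted p = 0.0507).

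Of 21 genes of vesicle traffic, which carries folded proteins on to the Golgi, 14 were higher and 0 lower in imiquimod-ear, and 10 higher and 4 lower in imiquimod-dorsal, where 32.3% of all tested genes were higher and 27.6% lower (14.3% and 6.98% in imiquimod-ear). The KDEL receptor gene Kdelr1 rose by 0.55 in imiquimod-ear (adjusted p = 0.00101), and the cargo receptor gene Tmed2 rose in both groups, by 0.50 and 0.62 (adjusted p = 0.00331 and 3.94e-05). The coat gene Sec24b fell in imiquimod-dorsal by 0.41 on the log2 scale (adjusted p = 0.000145). In IL-23-ear 0 of the 80 genes of these 5 lists passed by edgeR, where 10 had an unadjusted p below 0.05, and 0 passed by limma-voom. By DESeq2 1 passed, the signal recognition particle gene Srp14 (0.23, adjusted p = 0.0456), which had an adjusted p of 0.264 by edgeR.

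Between the treated groups, pathway genes with the smallest adjusted p in each list were these. In imiquimod-ear against imiquimod-dorsal, Creb3l2 (1.39), Txndc11 (1.12), the oxidase gene Ero1b (0.44), Tram2 (1.26), Selenos (0.69), Sec24d (1.09) and Sec24a (0.89) were higher, and Tusc3 (-0.61) lower. In IL-23-ear against imiquimod-ear, Xbp1 (-1.11), Creb3l2 (-0.91), Fkbp11 (-1.86), Txndc5 (-1.64), Tram2 (-1.33), Srp9 (-0.32), Ube2j1 (-0.39), Vcp (-0.44), Lman1 (-0.85) and Kdelr1 (-0.37) were lower. Of these, the Creb3l2 call was lost in a fit of only the 2 groups compared (-0.91, adjusted p = 0.0513), that of Ube2j1 without IL-23-ear 3 or in a fit of only the 2 groups compared (-0.38 to -0.36, adjusted p = 0.0543 to 0.0615) and that of Vcp without IL-23-ear 1 or in a fit of only the 2 groups compared (-0.43 to -0.36, adjusted p = 0.0559 to 0.0636). In IL-23-ear against imiquimod-dorsal, Atf4 (-0.97), Ppp1r15a (-3.01), Dnajc10 (-0.49), Mogs (-0.47), Tusc3 (-0.57), Srp19 (-0.73), Nploc4 (-0.93), Mcfd2 (0.44) and Sec24b (0.37) passed.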

How the data were processed

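Poly(A) RNA of spleens was sequenced in paired 150-base reads from 14 non-stranded libraries, per the labels' protocols. The authors deposited a table of raw read counts per gene. HISAT2 2.2.1, featureCounts 2.0.3, fastp 0.23.2, StringTie 2.2.1 and DESeq2 1.38.3 with GRCm39 are named in the submitters' processing notes, without their roles. Of 22740 entries, 624 unnamed loci, holding 0.484 to 0.674% of the counts, were left out. Where genes overlap on the 2 strands, their reads could not be separated.

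All 14 libraries entered 1 edgeR 4.0.16 fit (R 4.3.3, TMM, filterByExpr with a minimum count of 10, robust quasi-likelihood F test), with groups as the only term and Benjamini-Hochberg adjustment at 0.05 over 15159 genes. The biological coefficient of variation was 18.7%. The fit was also run on simulated counts for imiquimod-dorsal against control only. There 200 genes were changed and every gene was given the same spread. Far more genes differed in the real comparison, so this run does not show how the test behaves there. Nothing in the labels says more of the replicates than that they are biological. The p-values measure the spread between libraries, each taken as 1 mouse. The 3 comparisons against controls share the control libraries.

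Alternatives were DESeq2 1.42.0, limma-voom (limma 3.58.1), RLE size factors, no low-count filter, removal of 10 haemoglobin and 255 immunoglobulin genes, a fit of only the 2 groups compared, a replicate block, and each library left out. Named in every comparison were 12 set members, the 6 largest called rises and 6 largest called falls, and up to 2 called genes of each pathway list, of which 1 gene is not reported here; other members were named to describe their role, with their values known. The members and lists were chosen with earlier results of these data known.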

Additional observations from a re-analysis of the deposited data

Results flagged for a closer look

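In 4 of 90 groups of 4 libraries screened, 1 library stood apart from the other 3 by a gap above Dixon's 95% critical value; chance gives about 1 in 20. Sec61b was at 92.63 CPM in imiquimod-dorsal 3, below 98.62 to 99.65 CPM in the other imiquimod-dorsal libraries. Sec62 was at 195.4 CPM in imiquimod-dorsal 3, above 165.9 to 168.2 CPM. Spcs3 was at 175.5 CPM in imiquimod-dorsal 3, below 196.2 to 198.6 CPM. Herpud1 was at 168.3 CPM in imiquimod-ear 3, above 132.4 to 134.8 CPM in the other imiquimod-ear libraries.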

How the results depend on the processing

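Over 21 other settings, 5250 of 5670 member values kept their direction and side of the threshold, 309 lost a call, 111 gained one and 0 reversed. Leaving out 1 library gave, for imiquimod-dorsal against control, 8 to 19 higher and 2 to 5 lower members (17 and 3 with all libraries), for imiquimod-ear against control 28 to 42 higher (40), for imiquimod-ear against imiquimod-dorsal 34 to 39 higher and 1 to 2 lower (37 and 2), for IL-23-ear against imiquimod-ear 17 to 37 lower (34), and for IL-23-ear against imiquimod-dorsal 5 to 13 higher and 4 to 8 lower (5 and 7). In a fit of only the 2 groups compared, 5 members were lower in imiquimod-dorsal than in controls, 1 lower in imiquimod-ear than in imiquimod-dorsal, 16 lower in IL-23-ear than in imiquimod-ear, and 15 higher and 12 lower in IL-23-ear than in imiquimod-dorsal. With no low-count filter, 1 member was lower in imiquimod-ear than in imiquimod-dorsal and 9 were higher in IL-23-ear than in imiquimod-dorsal; that last count was 11 with DESeq2, 8 with RLE size factors and 11 without haemoglobin and immunoglobulin genes. With a replicate block, 12 members were higher in imiquimod-ear than in controls, 1 lower in imiquimod-ear than in imiquimod-dorsal, 22 lower in IL-23-ear than in imiquimod-ear and 2 higher in IL-23-ear than in imiquimod-dorsal. The numbers showed no clear pairing of the samples. Over 13 same-number pairs the correlations of deviations ran from -0.24 to 0.18, 1 was over 0.1, and 2 of 14 libraries correlated best with their own number. With 3 or 4 libraries per group this check could not exclude a pairing. The cause of these shifts was not tested.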
